A study of Mus musculus with 24 samples.

Results

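Spinal cords of 5 wild-type mice that had received MOG-specific Th1 cells were compared with spinal cords of 5 naive wild-type mice across 17097 genes, which are all genes on the array that 1 probe set could name. MOG, myelin oligodendrocyte glycoprotein, is a protein of the outer myelin surface, and T cells raised against a peptide of it cause experimental autoimmune encephalomyelitis (EAE), a paralytic disease of mice with inflammation and demyelination of the spinal cord. The Th1 recipients were wild-type mice that were irradiated with 500 rad and injected 4 hours later with cultured lymph node and spleen cells from MOG-immunized donors (the labels name lymph nodes only). The donor cells were taken 10 days after immunization and had been cultured for 5 days with the peptide, IL-12 and an antibody to IL-23p19. The naive mice were wild-type mice, labelled unchallenged, that were left untreated, so irradiation, cell transfer and disease cannot be told apart in this comparison. The labels put collection at the onset of symptoms and the design text of the study puts it at the peak of disease. The 10 mice were chosen by their titles from 24 mice in the series. Of the other 14, the 5 wild-type recipients of MOG-specific Th17 cells (donor cells cultured with IL-23, the same irradiation) are set against the Th1 recipients where this shows how they differ. The Act1-deficient mice entered only steps run over all 24 arrays. Among these were the choice of probe sets, the limit for a low level, the principal components and the estimate of the spread.

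A single array was run for each mouse, and levels are log2 values after robust multi-array averaging (RMA), so a difference of 1 is a 2-fold change. The arrays carry no detection calls. A mean level below 3.52, the middle of the array medians, is called near background here, and a fold change out of such a group is given as "at least", since background raises the low value. Th1 recipients 4 and 5 stood apart from the other Th1 recipients: on the first principal component, which held 82.8% of the variance, they lay at 55.0 and 55.9, against 67.8 to 68.5 for Th1 recipients 1 to 3 and −47.7 to −46.4 for the naive wild-type mice. A myelin gene and a neuronal gene were high in each Th1 recipient and each naive wild-type mouse. Myelin basic protein (Mbp) was at 12.29 to 12.66 in Th1 recipients and 13.01 to 13.12 in naive mice, and neurofilament light chain (Nefl) was at 11.40 to 11.64 in Th1 recipients and 12.14 to 12.34 in naive mice.

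Th1 cells are CD4+ T cells that make interferon-γ (IFN-γ). The cytokine acts through its receptor on genes that carry short DNA elements called GAS and, through interferon regulatory factors, on genes with a related element, the ISRE. Its best known targets are the guanylate-binding proteins and immunity-related GTPases that attack intracellular microbes, the chemokines that draw CXCR3+ T cells, and the genes that load and present peptides on MHC class I and class II molecules. In EAE, T cells reactivated in the cord draw in monocytes from blood, and resident microglia and astrocytes change their gene expression around the lesions. In bulk tissue, fewer cells of a type, less RNA per cell and a smaller share of the total RNA cannot be told apart. The same holds for increases.

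Of 17097 genes, 2854 (16.7%) were higher and 4115 (24.1%) were lower in Th1 recipients at an adjusted p below 0.05 (limma with Benjamini-Hochberg adjustment). Counts of called genes in the gene lists that follow are to be read beside these shares. As deposited, the increases were the larger changes. Among called genes, 1152 rose by 2-fold or more and 248 fell by 2-fold or more, 596 rose by 4-fold or more and 6 fell by that much, and 188 rose by 16-fold or more with no gene falling as far. Of the 1152 genes, 510 were near background in naive cords, and of the 248 genes, 15 were near background in Th1 recipients. The balance of directions depended on scaling, for all calls and at 2-fold. Centring each array on the median of its genes moved the median of all genes by −0.25 and made 14.9% of the calls increases, against 41.0% as deposited, and centring on ribosomal protein genes moved it by −0.61 and made 8.01% of them increases. These scalings lower the difference of every gene by the same 0.25 and 0.61, so a called increase smaller than that is negative under them. At 2-fold or more, 949 genes were called higher and 805 lower with median centring, and 760 higher and 3028 lower with ribosomal centring. At 4-fold or more the counts were 517 higher and 16 lower with median centring, and 427 higher and 55 lower with ribosomal centring. As deposited, in 1398 of the 1400 genes the direction was the same within each of the 3 plate rows that held both groups (rows were read from a letter code in the titles). Without Th1 recipients 4 and 5, 1399 of the 1400 kept their call. Where the 5 and 5 values of a gene do not overlap, the exact two-sided permutation p is 0.00794, the smallest that 5 against 5 allows.

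**Figure D1:**
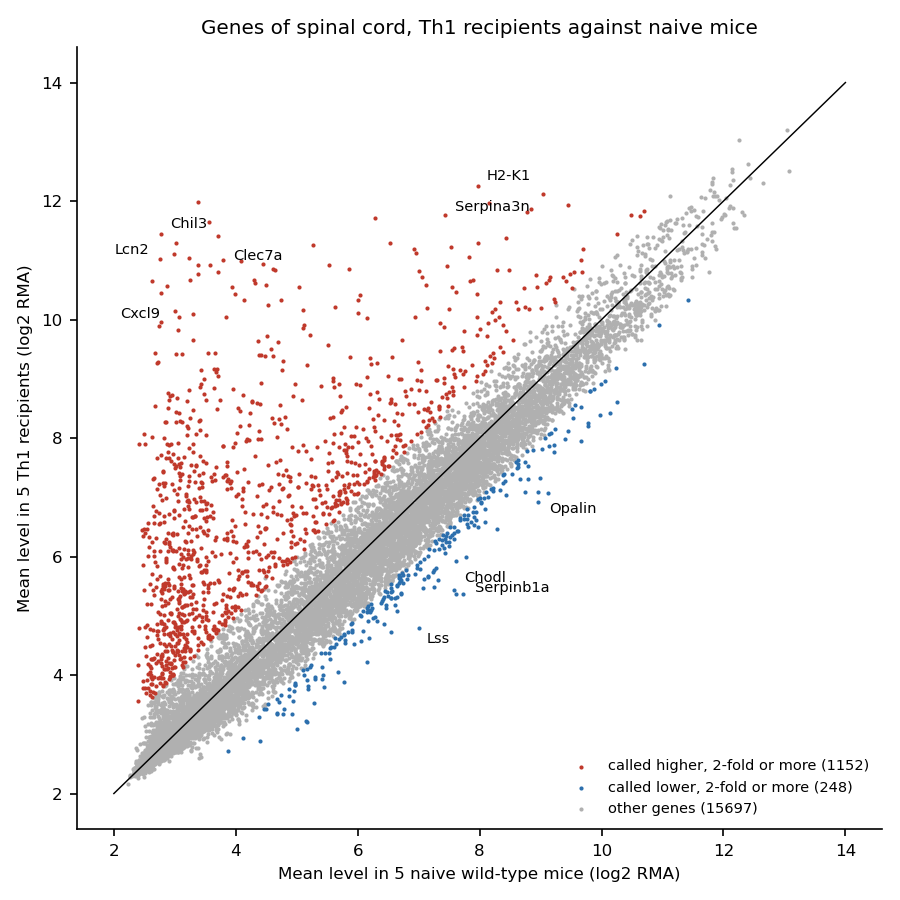
Mean log2 level of each of 17097 genes in 5 Th1 recipients (vertical axis) against 5 naive wild-type mice (horizontal axis), with called genes that changed by 2-fold or more in color and the named genes labelled. The 1152 genes in red reach a difference of 8.67 (Chil3) above the line of equal levels, while the 248 genes in blue reach −2.36 (Serpinb1a) below it.

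The 15 largest increases were of myeloid and IFN-γ-induced genes. Chil3, a chitinase-like lectin of macrophages, was at 11.54, 11.92, 11.94, 11.24 and 10.60 in the 5 Th1 recipients, against 2.96, 2.56, 2.76, 2.72 and 2.91 in the 5 naive mice, a difference of 8.67 ± 0.17 (SE) and at least 407-fold (adjusted p = 3.9e-24). Its near-identical neighbor Chil4 differed by 8.61 ± 0.19, and the array may not tell the pair apart. Lcn2, a siderophore-binding protein of neutrophils and reactive astrocytes, was at 11.50, 10.85, 10.42, 11.36 and 11.02 in Th1 recipients, against 2.52, 2.77, 2.97, 2.77 and 2.77 in naive mice. The remaining members of this group were the MHC class II genes H2-Ab1, H2-Aa and Cd74, the IFN-γ-induced GTPases Iigp1, Tgtp1, Ifi47 and Gbp10, the chemokine Ccl6, the oxidase subunit Cybb, the arginase Arg1, the inhibitory receptor Lilrb4a and the transcript AW112010, with differences of 7.35 to 8.28. In each of the 15 genes the lowest Th1 recipient lay at least 6.70 above the highest naive mouse on the log2 scale.

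Of 21 IFN-γ-induced genes measured, 19 rose and none fell, with a median difference of 4.94 (all genes, −0.06). Gbp5 and Gbp6 of this list were not analysed here. Iigp1, an immunity-related GTPase, was at 11.10, 11.09, 11.14, 10.99 and 11.19 in Th1 recipients, against 2.81, 3.13, 3.00, 2.99 and 2.99 in naive mice, a difference of 8.12 ± 0.092 (at least 277-fold, adjusted p = 1.6e-28). The 5 recipients lay between 10.99 and 11.19, so Th1 recipients 4 and 5 did not stand apart for this gene. The same held for Cxcl9 and Cxcl10, ligands of CXCR3. Cxcl9 was at 10.14, 10.04, 10.10, 9.99 and 10.42 in Th1 recipients, against 3.08, 2.99, 2.96, 3.01 and 2.94 in naive mice (difference 7.14 ± 0.088), and Cxcl10 was at 10.28, 10.03, 10.09, 9.79 and 10.06 in Th1 recipients, against 2.92, 2.71, 3.04, 3.25 and 3.45 in naive mice (difference 6.97 ± 0.12). The guanylate-binding protein Gbp2 differed by 6.61 ± 0.12, Cd274, which encodes the T cell inhibitory ligand PD-L1, by 5.49 ± 0.093, and the transcription factors Irf1 and Irf8 by 4.90 ± 0.13 and 4.89 ± 0.13. Ciita, the master activator of MHC class II genes, differed by 0.84 ± 0.085. The inducible nitric oxide synthase Nos2 was near background in both groups and not called (3.29 in Th1 recipients, 2.91 in naive mice, adjusted p = 0.057), and Gbp4 was the other member not called, with a difference of −0.05 ± 0.099. Ifng itself had a smaller increase, with 4.38, 3.83, 3.93, 4.11 and 4.31 in Th1 recipients, against 2.80, 2.72, 2.53, 2.41 and 2.55 in naive mice (difference 1.51 ± 0.13). Its receptor chains Ifngr1 and Ifngr2 rose by 2.10 and 0.89.

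The promoters of 4 of these GTPase genes are shown because each holds, within 300 bases around the start site, both a GAS letter pattern (TTCNNNGAA) and the GAAANNGAA core of an ISRE, searched on both strands. The 110 bases before each start are from RefSeq (GRCm38.p6), written 5′ to 3′ on the strand of the gene, with the matches in capitals.
Tgtp1, chr11:48992247-48992356, minus strand: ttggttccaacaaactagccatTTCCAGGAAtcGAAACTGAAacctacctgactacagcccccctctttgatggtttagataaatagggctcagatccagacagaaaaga
Igtp, chr11:58199446-58199555, plus strand: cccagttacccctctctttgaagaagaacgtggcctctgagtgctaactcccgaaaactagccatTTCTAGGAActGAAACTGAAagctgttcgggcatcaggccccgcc
Irgm2, chr11:58214867-58214976, plus strand: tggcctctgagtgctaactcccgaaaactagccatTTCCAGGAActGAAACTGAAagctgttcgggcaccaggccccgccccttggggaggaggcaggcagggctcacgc
Gbp7, chr3:142530226-142530335, plus strand: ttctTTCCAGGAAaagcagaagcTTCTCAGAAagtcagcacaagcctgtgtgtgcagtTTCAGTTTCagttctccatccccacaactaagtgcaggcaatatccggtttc
In Tgtp1, Igtp and Irgm2 the GAS match began 11 bases upstream of the ISRE pair (at 88 and 77, 45 and 34, and 75 and 64 bases before the start). These genes differed by 7.80 ± 0.13, 6.23 ± 0.13 and 5.52 ± 0.15, and Gbp7 by 5.34 ± 0.11. The GAS pattern was in 53.3% of the 15 windows available for the list and in 7.44% of 13514 windows over all genes, and the ISRE pair in 73.3% of the list and 7.32% of all windows. Both patterns were in 4 of the 15 windows and in 121 of all 13514 windows (0.895%). Of those 121 genes, 30 (24.8%) were called higher and 18 (14.9%) lower, against 16.7% and 24.1% of all genes, with a median difference of −0.0092. Among genes called higher by 16-fold or more, 16.8% of 137 windows held the GAS pattern and 27.0% the ISRE pair. Among genes called lower by 2-fold or more, 3.28% of 183 windows held the GAS pattern and 4.92% the ISRE pair. These shares are a description.

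Antigen presentation genes rose as a group. All 12 MHC class II genes and all 11 MHC class I and immunoproteasome genes were called higher, with median differences of 4.96 and 3.80. H2-Ab1, the β chain of the class II molecule I-A, was at 11.06, 11.11, 11.21, 11.52 and 11.59 in Th1 recipients, against 3.26, 2.84, 2.88, 3.17 and 2.92 in naive mice, a difference of 8.28 ± 0.14 and at least 311-fold. The invariant chain Cd74 was at 11.58, 11.43, 11.62, 11.79 and 11.86 in Th1 recipients, against 3.25, 3.40, 3.50, 3.88 and 3.80 in naive mice. In both genes Th1 recipients 4 and 5 had the highest levels. H2-Oa, which encodes a chain of the peptide-loading inhibitor H2-O, also was highest there, with 6.70, 6.85, 7.57, 7.69 and 7.99 in Th1 recipients, against 3.22, 2.98, 3.04, 2.91 and 3.26 in naive mice, and its partner H2-Ob differed by 0.26 ± 0.091 and was no longer called without Th1 recipients 4 and 5. On the class I side, H2-K1 was at 12.24, 12.27, 12.29, 12.24 and 12.23 in Th1 recipients, against 8.07, 7.94, 7.78, 7.96 and 8.10 in naive mice, and the immunoproteasome subunits Psmb8 and Psmb9 differed by 6.79 ± 0.14 and 5.78 ± 0.096. Nlrc5, the activator of class I genes, differed by 4.94 ± 0.088.

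CCAAT boxes (letters ATTGG or CCAAT) are printed for the class II promoters since a conserved box of this kind, the Y box, is part of the known class II promoter module. They were in 66.7% of the 9 class II windows and in 38.4% of all windows.
H2-Aa, chr17:34287824-34287933, minus strand: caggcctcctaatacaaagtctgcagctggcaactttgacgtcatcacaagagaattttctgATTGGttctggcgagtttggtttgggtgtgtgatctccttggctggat
H2-Eb1, chr17:34305757-34305866, plus strand: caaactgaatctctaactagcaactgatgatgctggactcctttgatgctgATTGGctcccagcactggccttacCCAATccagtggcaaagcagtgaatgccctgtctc
H2-DMb2, chr17:34145139-34145248, plus strand: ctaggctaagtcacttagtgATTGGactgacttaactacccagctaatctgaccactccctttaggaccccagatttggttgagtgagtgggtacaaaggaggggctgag
The 3 genes differed by 8.01 ± 0.15, 7.09 ± 0.14 and 5.13 ± 0.14. H2-DMb2 encodes a chain of the H2-DM editor that exchanges peptides on class II molecules.

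All 17 antiviral genes known as type I interferon targets rose too, with a median difference of 3.36. Zbp1, a sensor of Z-form nucleic acids, was at 8.86, 8.42, 8.76, 8.62 and 8.59 in Th1 recipients, against 2.92, 2.79, 2.89, 3.06 and 2.88 in naive mice. Ifit1, which binds viral RNA caps, was at 9.51, 9.18, 9.56, 8.44 and 9.13 in Th1 recipients, against 3.62, 3.51, 3.59, 3.77 and 3.72 in naive mice, and recipient 4 was the lowest, as it was for Ifit3, Oasl2 and Stat2. The smallest increase was that of Mx2 (0.95 ± 0.21). The JAK-STAT list rose in 13 of 15 genes with a median of 1.30. Its largest increase was that of Socs3, an inhibitor of STAT3 signaling (6.92, 5.89, 6.26, 6.44 and 6.48 in Th1 recipients, against 2.79, 3.01, 2.90, 2.96 and 2.75 in naive mice), followed by Stat2 (2.38 ± 0.16) and Socs2 (2.01 ± 0.23). 

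**Figure D2:**
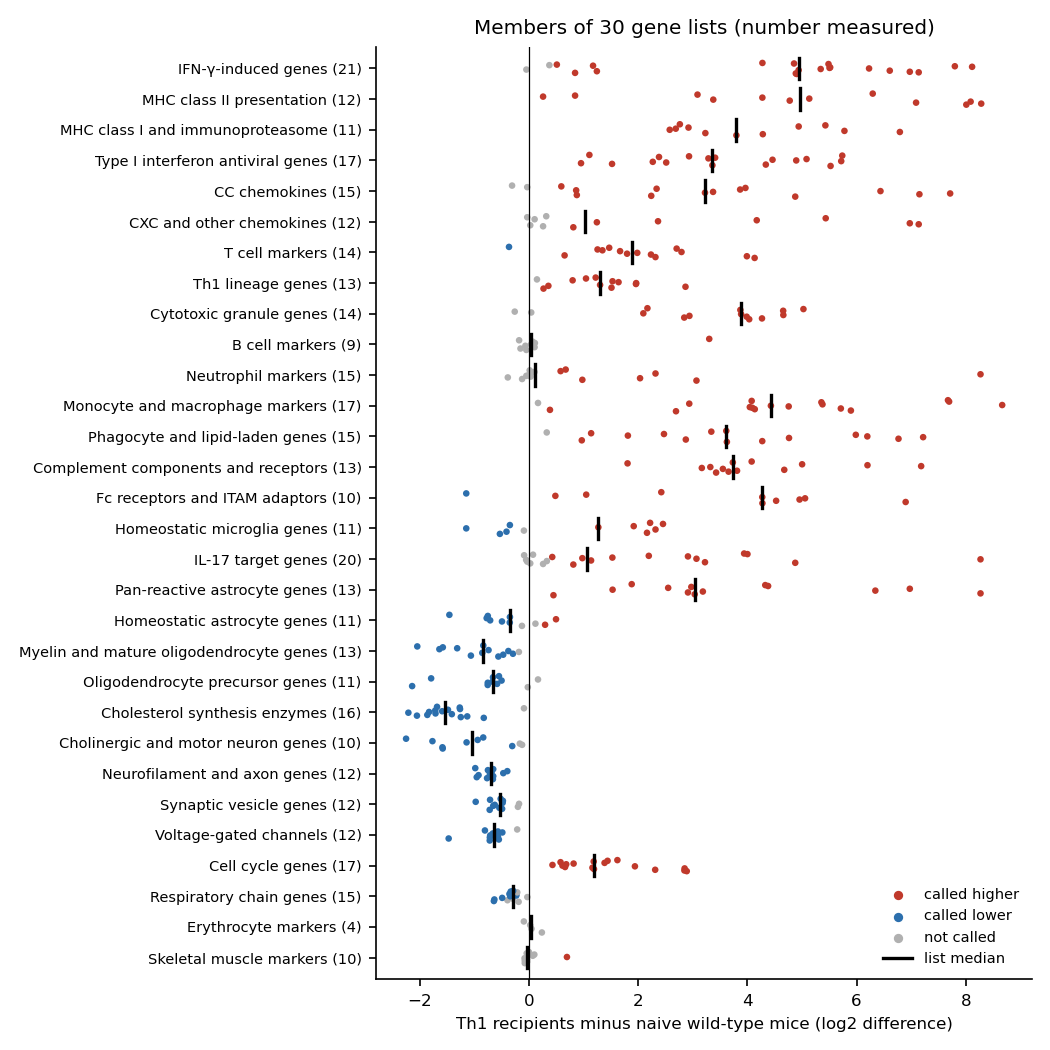
Difference in log2 level between Th1 recipients and naive wild-type mice (horizontal axis) for each measured member of 30 gene lists (rows), with called genes in red (higher) or blue (lower), other genes in gray and the list median as a black bar. The lists of IFN-γ-induced, type I interferon antiviral, MHC, CC chemokine and monocyte and macrophage genes have medians of 3.22 to 4.96, and those of myelin, cholesterol synthesis, motor neuron, neurofilament, synaptic vesicle and voltage-gated channel genes have medians of −1.54 to −0.53.

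Chemokines rose in 13 of 15 CC members and 7 of 12 CXC and other members. Ccl5, a chemokine made by T cells and macrophages, was at 9.72, 9.69, 9.92, 10.12 and 9.98 in Th1 recipients, against 2.57, 2.65, 2.96, 2.67 and 2.82 in naive mice (difference 7.15 ± 0.12). Ccl6 and Ccl9 were at means of 11.42 and 10.43 in Th1 recipients, against 3.70 and 3.99 in naive mice, and both were about 1 log2 unit lower in Th1 recipients 4 and 5 than in the other recipients. Ccl2, the CCR2 ligand that draws monocytes, differed by 4.88 ± 0.15. Cxcl1, which attracts neutrophils, was at 4.51, 3.44, 3.30, 4.03 and 4.16 in Th1 recipients, against 3.09, 3.06, 3.04, 3.28 and 2.91 in naive mice (difference 0.81 ± 0.15), Cxcl2 differed by 0.26 ± 0.16 (adjusted p = 0.21), and Ccl20 was near background in both groups with a difference of −0.03. The B cell chemokine Cxcl13 ranged widely among the recipients, with 6.90, 6.39, 6.17, 7.45 and 7.89 in Th1 recipients, against 2.86, 2.73, 2.60, 2.95 and 2.79 in naive mice. Among receptors, Cxcr6 (3.60 ± 0.14), Ccr1 (3.80 ± 0.21), Ccr2 (2.69 ± 0.15) and Cxcr3 (1.96 ± 0.19) rose, and Cxcr2 and Ccr6 were not called.

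T cell markers rose in 13 of 14 genes. Cd3d, a chain of the T cell receptor complex, was at 7.34, 6.82, 7.44, 6.94 and 7.09 in Th1 recipients, against 2.98, 2.88, 2.93, 3.10 and 3.07 in naive mice (difference 4.13 ± 0.11). Cd4 was at 5.72, 5.29, 5.17, 6.14 and 5.28 in Th1 recipients, against 3.38, 3.35, 3.26, 3.36 and 3.07 in naive mice. The coreceptor of cytotoxic T cells, Cd8a, was at 5.38, 5.65, 5.39, 3.45 and 4.16 in Th1 recipients, against 2.72, 3.02, 3.05, 3.26 and 3.00 in naive mice, so recipients 4 and 5 had the lowest Cd8a but not the lowest Cd4. Thy1 fell, with 10.47, 10.42, 10.46, 10.67 and 10.57 in Th1 recipients, against 10.88, 10.93, 10.88, 10.90 and 10.82 in naive mice, and this surface protein is also abundant on mouse neurons. Genes of the Th1 lineage rose in 12 of 13 members with a median of 1.30, and all 13 were near background in naive cords. The increase was not particular to Th1 recipients. In Th17 recipients 12 of 13 were also higher than in naive mice, with a median of 1.34. Of the 13, 0 were higher and 1 was lower in Th1 than in Th17 recipients (1.09% and 1.91% of all genes). The IL-12 receptor chain Il12rb1 (2.87 ± 0.23), the IL-18 receptor chain Il18rap (1.64 ± 0.12) and the transcription factor Stat4 (1.30 ± 0.098) rose, and Il2 was not called. Tbx21, the master regulator of Th1 cells, was called with a difference of 0.27 ± 0.098 (adjusted p = 0.03), although it was near background in both groups (2.93 in Th1 recipients, 2.67 in naive mice) and negative under ribosomal centring, and its call was lost without Th1 recipients 4 and 5. Of 8 Th17 lineage genes, Batf, Il1r1, Csf2 and Ahr rose and Rora fell, though Ahr was negative under ribosomal centring and Rora had no difference (0.03) when probe sets that hit several transcripts were left out. Il17a was near background in both groups (3.10 in Th1 recipients, 3.22 in naive mice, adjusted p = 0.48). The median of this list, 0.30, turned negative when arrays were centred on ribosomal genes, and so did that of the 7 Treg genes (0.35, 4 called higher, 4 near background in both groups). Foxp3, the Treg master regulator, differed by 0.20 ± 0.089 (adjusted p = 0.075).

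Cytotoxic granule genes rose in 12 of 14 members, with a median difference of 3.88, and they were the group that varied most among the Th1 recipients. Gzmb, the granzyme that activates caspases in target cells, was at 9.33, 9.09, 8.72, 5.29 and 5.26 in Th1 recipients, against 3.19, 3.20, 3.39, 3.51 and 3.08 in naive mice. Gzma was at 8.01, 8.28, 8.17, 3.67 and 5.30 in Th1 recipients, against 2.70, 2.87, 2.75, 2.60 and 2.34 in naive mice, and Gzmf was at 8.35, 8.84, 8.24, 5.72 and 5.36 in Th1 recipients, against 2.58, 2.63, 2.72, 2.65 and 2.64 in naive mice. In all 3 granzymes recipients 4 and 5 lay between the naive mice and the other recipients, without overlapping either. Gzmc, Gzmd, Gzme, Gzmf and Gzmg are near-identical neighbors on 1 chromosome and their probe sets may share signal. The granule protease Ctsw (8.22, 7.80, 7.82, 7.87 and 7.82 in Th1 recipients, against 2.61, 3.15, 2.90, 2.84 and 2.88 in naive mice) and the granule membrane protein Nkg7 (7.28, 7.42, 7.61, 7.05 and 7.23 in Th1 recipients, against 2.69, 2.66, 2.63, 2.74 and 2.60 in naive mice) rose with little spread. The pore-forming protein Prf1 did not pass the test, with 3.37 in Th1 recipients and 3.63 in naive mice (adjusted p = 0.061), nor did Gzmm (0.04). The list median was 4.44 without Th1 recipients 4 and 5.

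**Figure D3:**
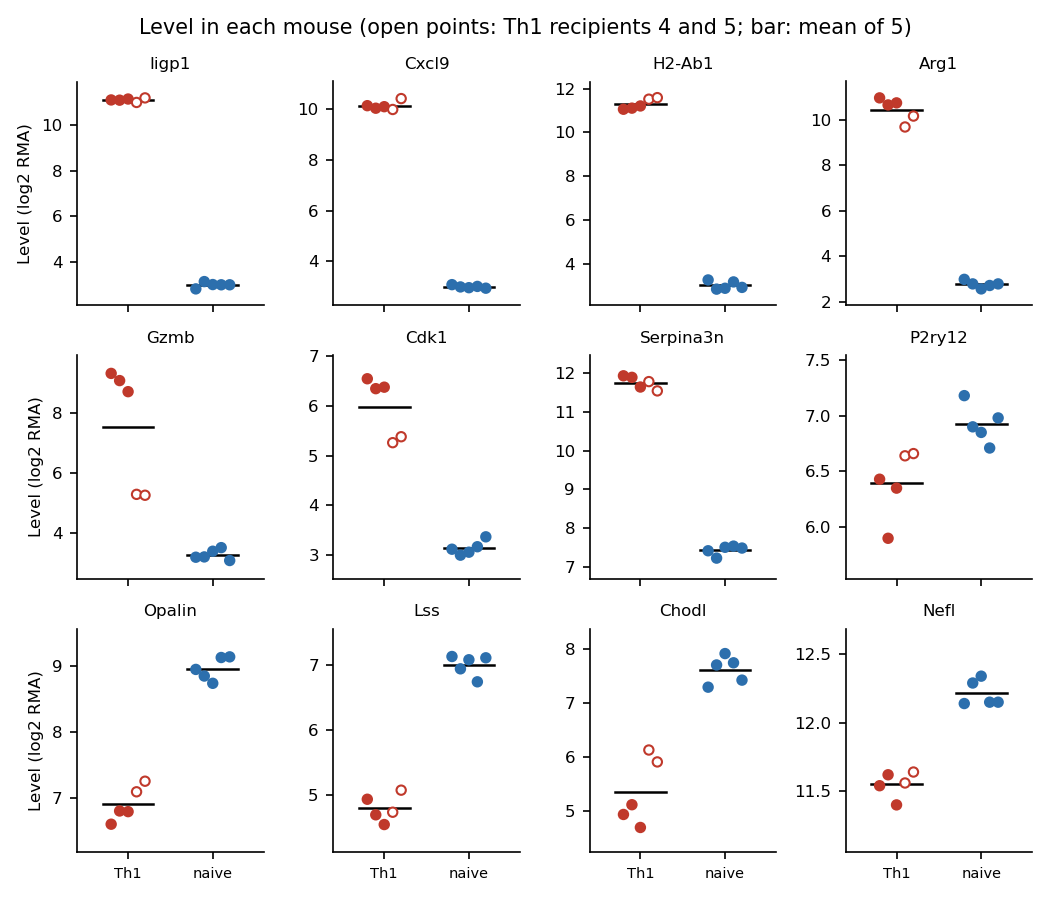
Log2 level in each mouse (points) with the group mean (bar) for 12 genes named in the text, Th1 recipients at left and naive wild-type mice at right in each panel. Iigp1, Cxcl9 and H2-Ab1 differ in the mean by 7 or more log2 units with little spread, Gzmb and Cdk1 are split by recipients 4 and 5 (open points), and Opalin, Lss, Chodl and Nefl are lower in every Th1 recipient than in any naive mouse.

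NK cell receptors rose in 4 of 7 genes, led by Klrd1 (2.59 ± 0.20), while the NK-defining gene Ncr1 was near background and not called. Of the 7 genes, 4 were near background in both groups. Of 9 B cell markers only Cd22 was called (3.30 ± 0.17), with Cd79a and Ms4a1 near background in both groups, and Cd22 encodes a sialic acid receptor that microglia are also known to carry. The median of the B cell list (0.04) changed sign under median and ribosomal centring and without Th1 recipients 4 and 5. Plasma cell genes rose in 3 of 6 (Prdm1, Xbp1 and Irf4), with 4 of the 6 near background in both groups, and Irf4 was negative under ribosomal centring. Dendritic cell genes were divided: Itgax (4.76 ± 0.14), Batf3 (0.92 ± 0.12) and Itgae (0.47 ± 0.18, not called without Th1 recipients 4 and 5) rose, Flt3 (−0.84 ± 0.17) and Fscn1 (−0.45 ± 0.075) fell, and Zbtb46 was not called, with a list median of 0.14 that turned negative under median and ribosomal centring. Neutrophil markers rose in 7 of 15, with a median of 0.10 that turned negative under median and ribosomal centring. Beside Lcn2, S100a8 was at 7.01, 6.33, 5.98, 5.78 and 5.34 in Th1 recipients, against 2.70, 3.04, 3.83, 2.88 and 2.65 in naive mice, and S100a9 at 6.49, 5.02, 3.57, 3.96 and 3.80 in Th1 recipients, against 3.24, 3.46, 4.26, 3.66 and 3.34 in naive mice, where the groups overlapped (adjusted p = 0.035). The S100a9 call was lost without Th1 recipient 1 or 2, without naive mouse 1, 2, 4 or 5, under median and ribosomal centring, with quantile normalization, in a trended and robust fit and in a fit of both groups alone. The granule genes Mpo and Ltf were near background in both groups.

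Monocyte and macrophage markers rose in 16 of 17 genes (median 4.43). Cybb, the catalytic subunit of the phagocyte NADPH oxidase, was at 10.33, 10.87, 10.49, 10.64 and 10.51 in Th1 recipients, against 2.92, 2.84, 2.81, 2.88 and 2.91 in naive mice. Arg1, which splits arginine to ornithine and urea, was at 10.97, 10.66, 10.75, 9.69 and 10.17 in Th1 recipients, against 2.99, 2.79, 2.57, 2.72 and 2.79 in naive mice (difference 7.67 ± 0.16). The monocyte receptor Ccr2 (2.69 ± 0.15) rose, as did the macrophage genes Cd68 (5.71 ± 0.14), Ms4a7 (5.38 ± 0.20) and Lyz2 (5.90 ± 0.14). Of 13 macrophage effector enzymes 11 rose, among them Acod1, which makes itaconate (5.87 ± 0.12). Phagocyte and lipid-laden genes rose in 14 of 15 (median 3.61), led by the β-glucan receptor Clec7a (11.01, 11.19, 10.96, 10.95 and 10.91 in Th1 recipients, against 3.69, 3.99, 3.76, 3.46 and 4.04 in naive mice), the cystatin Cst7 (6.77 ± 0.11) and Gpnmb (6.20 ± 0.18). Apoe, already at 11.12 in naive mice, was at 12.09 in Th1 recipients.

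Homeostatic microglia genes did not move together. Of 11 genes, 6 rose and 4 fell. Csf1r, the growth factor receptor of microglia and macrophages, was at 8.80, 8.72, 8.55, 8.82 and 8.97 in Th1 recipients, against 6.42, 6.28, 6.36, 6.17 and 6.36 in naive mice, Olfml3 differed by 2.32 ± 0.083 and Tmem119 by 2.16 ± 0.17. P2ry12, the nucleotide receptor lost by activated microglia, was at 6.43, 5.90, 6.35, 6.64 and 6.66 in Th1 recipients, against 7.18, 6.90, 6.85, 6.71 and 6.98 in naive mice (difference −0.53 ± 0.12), and Fcrls (−1.15 ± 0.17), Sall1 (−0.41 ± 0.13) and Slc2a5 (−0.35 ± 0.11) also fell, Slc2a5 at levels near background and not called without Th1 recipient 2 or naive mouse 1. Cx3cr1, carried by microglia and some monocytes, was highest in Th1 recipients 4 and 5 (7.77, 7.47, 7.65, 8.62 and 8.29 in Th1 recipients, against 7.08, 6.78, 6.28, 6.53 and 6.77 in naive mice).

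All 13 complement genes rose, with a median of 3.73. Cfb, the alternative pathway protease, was at 9.86, 9.98, 9.95, 10.11 and 9.86 in Th1 recipients, against 2.70, 2.83, 2.69, 2.88 and 2.76 in naive mice, and the C1q chains C1qa, C1qb and C1qc, which are made by microglia in resting cord, differed by 3.43 ± 0.11, 3.66 ± 0.13 and 3.81 ± 0.12. Serping1, the inhibitor of C1, differed by 6.20 ± 0.15. Fc receptors and their adaptors rose in 9 of 10 (median 4.28), with the inhibitory receptor Fcgr2b (11.11, 11.04, 10.98, 10.78 and 11.04 in Th1 recipients, against 4.22, 3.60, 3.94, 4.45 and 4.25 in naive mice) showing the largest difference (6.90 ± 0.15), followed by the shared γ chain Fcer1g (5.06 ± 0.15) and the activating Fcgr4 (4.96 ± 0.16). Toll-like receptors and adaptors rose in 11 of 12, with differences of 5.45 ± 0.13 for Tlr2 and 1.82 ± 0.17 for Tlr4, and 1 member was not called. Leukocyte integrins rose in 9 of 10. Itgb2, the shared β2 chain, differed by 6.35 ± 0.10, Itgal of LFA-1 by 5.43 ± 0.12 and Itga4 of VLA-4 by 2.92 ± 0.11.

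Of 11 IL-1 family genes 9 rose, led by the decoy Il18bp (4.90 ± 0.14) and the antagonist Il1rn (3.90 ± 0.20). Il1b was at 5.25, 4.36, 4.44, 5.23 and 5.88 in Th1 recipients, against 3.02, 2.93, 2.80, 2.88 and 3.05 in naive mice, and the accessory receptor Il1rap fell (−0.65 ± 0.13). TNF family genes rose in 15 of 16. Tnfrsf1b, the TNF receptor of leukocytes and microglia, differed by 4.85 ± 0.11, while Tnf was at 4.05, 3.53, 3.86, 4.84 and 5.29 in Th1 recipients, against 3.03, 2.64, 2.73, 2.76 and 2.74 in naive mice, highest in recipients 4 and 5. Of 20 genes known as IL-17 targets 13 rose, among them Lcn2, Ccl2, Cebpd (4.00 ± 0.12) and Cebpb (3.94 ± 0.17), while Il6 (0.33), Csf3 (−0.05) and Mmp3 (−0.09) did not pass. All 11 checkpoint genes were called higher, led by Cd274, Cd86 (3.43 ± 0.11), Lgals9 (3.55 ± 0.21) and Havcr2 (2.70 ± 0.10), and Ctla4 (0.35 ± 0.11) was negative under ribosomal centring. Inflammasome and cell death genes rose in 9 of 10, with Pycard, the adaptor of the inflammasome, at 4.93 ± 0.15 and Casp4 at 4.48 ± 0.11. IL-6 family genes rose in 4 of 10, with Osmr at 2.97 ± 0.15, and their median (0.25) turned negative under ribosomal centring.

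Gene lists named for astrocyte programs differed in direction. All 13 pan-reactive genes rose, with a median of 3.04. Some members also stand in other lists, such as Lcn2 in the neutrophil list and Cxcl10 in the IFN-γ list. Which cells carried these increases was not tested. Serpina3n, a secreted protease inhibitor, was at 11.93, 11.89, 11.64, 11.78 and 11.54 in Th1 recipients, against 7.41, 7.22, 7.50, 7.53 and 7.48 in naive mice, and Timp1 at 10.09, 9.61, 9.22, 9.91 and 9.42 in Th1 recipients, against 3.42, 3.19, 3.25, 3.56 and 3.09 in naive mice. Gfap, the astrocyte intermediate filament, was the smallest of the 13, with 11.53, 11.40, 11.59, 11.67 and 11.49 in Th1 recipients, against 11.22, 11.09, 10.87, 11.13 and 11.14 in naive mice (difference 0.45 ± 0.094, negative under ribosomal centring). Genes of the A1 program rose in 8 of 10 (median 4.65), but all of these except Fkbp5 also stand in the IFN-γ, MHC class I, complement or cytotoxic lists. Amigo2 and Fbln5 differed by 0.08 ± 0.079 and −0.02 ± 0.14 and were not called. Fkbp5, a glucocorticoid-induced gene, was at 8.73, 8.58, 8.42, 6.91 and 6.38 in Th1 recipients, against 5.98, 5.41, 5.70, 5.90 and 6.06 in naive mice. Genes of the A2 program rose in 10 of 12 (median 1.00), with Cd14, Tgm1 (3.38 ± 0.16) and Ptx3 (2.19 ± 0.17) leading. Cd14 also stands in the monocyte and macrophage list. Homeostatic genes fell in 7 of 11. Ntsr2, a neurotensin receptor of astrocytes, was at 9.24, 9.04, 9.0, 9.60 and 9.33 in Th1 recipients, against 10.73, 10.67, 10.70, 10.69 and 10.70 in naive mice (difference −1.46 ± 0.100), and Gjb6, Fgfr3, Gja1, Kcnj10, Aldoc and Slc4a4 fell by less. Slc4a4 had probe sets called in opposite directions, and Aldoc had no difference (0.005) when probe sets that hit several transcripts were left out. Aldh1l1 (0.50 ± 0.099) and the glutamate transporter Slc1a2 (0.30 ± 0.099) rose as deposited, and both were negative under ribosomal centring. Both were also negative when probe sets that hit several transcripts were left out, but the probe sets that remained were near background in both groups. Slc1a2 was not called without Th1 recipients 4 and 5. The water channel Aqp4 was not called (−0.13 ± 0.088).

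Myelin genes fell in 12 of 13, with a median difference of −0.84. Opalin, a membrane protein of mature oligodendrocytes, was at 6.61, 6.81, 6.80, 7.10 and 7.26 in Th1 recipients, against 8.95, 8.85, 8.74, 9.13 and 9.14 in naive mice, a difference of −2.04 ± 0.13 and a level 4.13-fold lower. The galactolipid enzymes Fa2h (−1.58 ± 0.092), Ugt8a (−1.64 ± 0.11) and Gal3st1 (−1.31 ± 0.12) had larger decreases than the structural genes Mog (−1.06 ± 0.14), Mbp (−0.56 ± 0.080), Mag (−0.47 ± 0.089) and Mobp (−0.29 ± 0.083). Cldn11 was not called. In precursor genes 9 of 11 fell. Gpr17, a receptor of differentiating precursors, was at 5.64, 4.85, 4.84, 6.09 and 5.80 in Th1 recipients, against 7.65, 7.54, 7.40, 7.75 and 7.56 in naive mice, and Bcan, which encodes brevican, was at 5.72, 5.39, 5.58, 6.85 and 6.43 in Th1 recipients, against 7.78, 7.64, 7.71, 7.98 and 7.81 in naive mice. For both, recipients 4 and 5 were nearest to the naive mice. Pdgfra was near background in both groups and gives no reading of precursor number here.

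Enzymes of cholesterol synthesis formed the gene list with the lowest median (−1.54, 15 of 16 called lower). Oligodendrocytes make most of the cholesterol that myelin needs, since little crosses from blood. Lss, which forms lanosterol, was at 4.93, 4.69, 4.54, 4.73 and 5.07 in Th1 recipients, against 7.13, 6.94, 7.08, 6.74 and 7.11 in naive mice, a difference of −2.21 ± 0.14 and 4.62-fold lower (adjusted p = 6.2e-13). Idi1 was at 7.13, 7.01, 6.96, 7.01 and 7.25 in Th1 recipients, against 9.03, 8.91, 9.31, 9.24 and 9.12 in naive mice, and Cyp51 at 6.76, 6.46, 6.20, 6.28 and 6.60 in Th1 recipients, against 8.23, 8.26, 8.40, 8.20 and 8.36 in naive mice. The 5 recipients lay close together in these genes, and recipients 4 and 5 did not stand apart. Ebp was the member not called (−0.09 ± 0.11). A CCAAT box is printed for this group because the factor NF-Y that binds it is a known partner of the sterol-responsive factor SREBP. It was in 92.3% of the 13 windows, against 38.4% of all windows, while the sterol element (TCACNCCAC) was in 1 of 13, against 1.22% of all windows.
Lss, chr10:76531495-76531604, plus strand: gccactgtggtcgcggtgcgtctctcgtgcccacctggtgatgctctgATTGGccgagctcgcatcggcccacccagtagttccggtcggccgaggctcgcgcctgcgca
Idi1, chr13:8885496-8885605, plus strand: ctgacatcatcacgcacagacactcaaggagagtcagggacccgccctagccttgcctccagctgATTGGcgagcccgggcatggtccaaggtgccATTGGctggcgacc
Cyp51, chr5:4104698-4104807, minus strand: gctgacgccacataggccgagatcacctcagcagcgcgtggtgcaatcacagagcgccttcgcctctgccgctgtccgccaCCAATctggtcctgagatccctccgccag
The matches describe letters and are not shown to be bound sites.

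Neuronal genes fell by less and with near uniform direction. All 12 neurofilament and axon genes fell (median −0.70), as did 10 of 12 synaptic vesicle genes, 10 of 12 transmitter receptor genes, 11 of 12 voltage-gated channel genes and all 8 inhibitory transmitter genes, and no gene of these lists rose. The heavy neurofilament chain Nefh was at 10.86, 10.82, 10.45, 10.90 and 10.99 in Th1 recipients, against 11.84, 11.75, 11.75, 11.65 and 11.81 in naive mice, and the synaptic vesicle protein Sv2b differed by −0.97 ± 0.093. The sodium channel of nodes of Ranvier, Scn8a, differed by −1.47 ± 0.16, the glycine receptor subunit Glra1 by −1.15 ± 0.21, and the inhibitory transporter Slc32a1 by −0.65 ± 0.086. Motor neuron genes fell more (8 of 10, median −1.04). Chodl, a marker of fast motor neurons, was at 4.94, 5.12, 4.70, 6.13 and 5.91 in Th1 recipients, against 7.29, 7.70, 7.91, 7.74 and 7.42 in naive mice (difference −2.25 ± 0.25), with recipients 4 and 5 again nearest to the naive mice. The vesicular acetylcholine transporter Slc18a3 was at 5.10, 4.66, 4.71, 5.09 and 4.72 in Th1 recipients, against 6.64, 6.45, 6.49, 6.36 and 6.23 in naive mice, and Isl2 and Mnx1 were near background in both groups. Of 12 injury genes 6 rose and 3 fell, with a median (0.31) that turned negative under ribosomal centring. Atf3, a transcription factor induced by axon injury and by other stresses, was at 6.83, 6.85, 6.74, 6.50 and 6.60 in Th1 recipients, against 3.21, 2.93, 3.24, 2.85 and 3.16 in naive mice, while Gal, Vip and Sox11 were not called and Gap43 fell (−0.40 ± 0.084).

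All 17 cell cycle genes rose, with a median of 1.19 that was 1.63 without Th1 recipients 4 and 5. Cdk1, the mitotic kinase, was at 6.55, 6.35, 6.38, 5.26 and 5.38 in Th1 recipients, against 3.11, 2.99, 3.05, 3.16 and 3.36 in naive mice, and Mki67 at 6.40, 7.04, 5.95, 5.33 and 5.83 in Th1 recipients, against 3.19, 3.00, 3.32, 3.19 and 3.41 in naive mice. Targets of p53, which respond to DNA damage such as that of irradiation, rose in 6 and fell in 2 of 11, with a median of 0.27 that turned negative under ribosomal centring. Cdkn1a, the p21 inhibitor of cyclin-dependent kinases, differed by 1.72 ± 0.20, Ccng1 by 0.92 ± 0.14 and Mdm2 by 0.26 ± 0.082 (negative under ribosomal centring), while Phlda3 was not called. Respiratory chain genes fell in 10 of 15 (median −0.30). Glycolysis genes rose in 6 and fell in 2 of 13, led by the hexokinases Hk2 (4.34 ± 0.12) and Hk3 (3.33 ± 0.15), with a median (0.23) that turned negative under median and ribosomal centring. Ribosomal protein genes rose in 15 of 16 (median 0.50) as deposited. Ribosomal centring sets the median level of these genes to the same value in every array. It does not set each member to no change: under it the median difference was −0.10, with 2 members called higher and 7 lower. Iron and metal genes rose in 9 of 13, with Slc11a1 at 4.53 ± 0.13 and Ftl1 at 2.86 ± 0.13, and the iron exporter Slc40a1 fell (−1.08 ± 0.18).

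In vessels and matrix, the adhesion molecules Icam1 (4.85 ± 0.12) and Vcam1 (2.38 ± 0.13) rose, Selp and Sele were near background in both groups, and Jam2 fell (−0.55 ± 0.12) with probe sets called in opposite directions. Endothelial barrier genes were called in 2 of 12 (Slc2a1 and Slc7a5, both higher, Slc2a1 negative under ribosomal centring), and Cldn5 and Cdh5 were not. Of all genes 16.7% were called higher and 24.1% lower, so the count of increases was no more than the share over all genes. Without Th1 recipients 4 and 5, 4 of these genes, Cldn5 among them, were called higher and 1 lower, and in a fit of both groups alone 3 were higher and 2 lower. Their median (0.16) turned negative under median and ribosomal centring. Timp1 (6.34 ± 0.13), Mmp12 (5.17 ± 0.28), Mmp14 (3.03 ± 0.12) and Mmp2 (3.92 ± 0.31) rose among proteases and inhibitors, Mmp9 was not called (−0.39 ± 0.18), and Timp2 fell (−0.29 ± 0.084) with probe sets called in opposite directions. Fibronectin (Fn1) differed by 4.76 ± 0.18 and Col3a1 by 3.01 ± 0.22, in a list of 12 in which 5 rose and whose median (0.20) turned negative under median and ribosomal centring. Col3a1 was not called when probe sets with a suffix for several or cross-hybridising transcripts were left out. The probe set that remained was near background in both groups.

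Genes that mark other tissues are set beside all genes, of which 16.7% were called higher and 24.1% lower. Many were near background in both groups, where a lack of calls says little. These were 3 of 4 erythrocyte, 7 of 10 skeletal muscle, 6 of 6 dorsal root ganglion, 7 of 8 mast cell and 5 of 6 platelet markers. They were also 4 of 7 meningeal, 2 of 5 Schwann cell and 1 of 7 ependymal markers. None of the 4 erythrocyte markers was called. Hba-a1, a hemoglobin chain, was at 10.71, 9.53, 9.28, 7.66 and 8.02 in Th1 recipients, against 8.65, 9.73, 9.39, 8.53 and 7.71 in naive mice. Skeletal muscle markers were called in 1 of 10 (Tnni2, 0.70 ± 0.11), dorsal root ganglion markers in 1 of 6 (Avil, 0.37 ± 0.13, negative under ribosomal centring) and mast cell markers in 1 of 8 (Kit, −0.67 ± 0.15, a gene that neurons also express). Of 7 ependymal markers only Rarres2 was called (3.42 ± 0.098). Its difference was −0.13 when probe sets that hit several transcripts were left out. The probe set that remained was near background in both groups (2.845 in Th1 recipients, 2.975 in naive mice). Another probe set that hits several transcripts differed by 3.40. Of 7 meningeal markers Ptgds fell (−0.26 ± 0.076) and Foxc1 rose (0.36 ± 0.11, negative under ribosomal centring), and 3 were higher without Th1 recipients 4 and 5. Schwann cell markers were called in 3 of 5, with Egr2 (2.52 ± 0.14), which macrophages also express, and Drp2 (0.90 ± 0.14) higher and Pmp22 (−0.55 ± 0.11) lower. Platelet markers gave Pf4 higher (0.93 ± 0.23) and Gp1bb lower (−1.02 ± 0.14). The Y-linked genes Uty, Kdm5d and Eif2s3y were near background and Xist was at 9.12 to 9.78 in all Th1 recipients and 9.11 to 9.58 in all naive mice.

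Other large decreases belonged to no gene list. Serpinb1a, an inhibitor of neutrophil proteases, showed the largest decrease of all genes, with 5.06, 4.81, 5.32, 5.91 and 5.75 in Th1 recipients, against 7.71, 7.66, 7.88, 7.80 and 7.58 in naive mice (difference −2.36 ± 0.15, 5.12-fold lower). Cdkn1c, the p57 inhibitor of cyclin-dependent kinases, was at 2.92, 3.32, 3.36, 3.41 and 3.14 in Th1 recipients, against 5.16, 5.02, 5.41, 4.97 and 5.21 in naive mice, near background in the recipients, as were Igsf1 (−1.97 ± 0.16) and Car3, a carbonic anhydrase (−1.92 ± 0.20). Sgk2 (−1.93 ± 0.19), Fads2b (−1.89 ± 0.20) and Tlcd1 (−1.81 ± 0.14) completed the 15 largest decreases together with Chodl, Lss, Gpr17, Idi1, Opalin, Fdps (−1.86 ± 0.15), Cyp51 and Bcan. Among the 10 genes with the highest naive level, Apod, a lipid carrier, rose to 13.03 in Th1 recipients, against 12.26 in naive mice. Plekhb1, Ndrg4 and Aplp1 fell by 0.49 to 0.63, and Gapdh differed by −0.05 ± 0.068 and was not called.

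The size of the differences from naive mice varied among the 5 Th1 recipients. Recipients 4 and 5 were singled out after their values were seen, so their contrast with the others is a description. Over the 1152 genes that rose by 2-fold or more, the median difference from the naive mean was 2.25, 2.19 and 2.20 in Th1 recipients 1 to 3 and 1.92 and 1.89 in recipients 4 and 5. Over the 248 genes that fell it was −1.25, −1.36, −1.33, −1.05 and −1.04 in this order of mice. Recipients 4 and 5 held the 2 lowest levels in 463 of the 1152 genes and the 2 highest in 66. The widest ranges were those of Gzma (4.60), Gzmb (4.07), Slfn4 (3.84), Ms4a8a (3.69), Gzmf (3.48), Gzmc (3.45) and Ear3 (3.30), each of which ranged over less than 0.8 in naive mice. Slfn4, a myeloid schlafen gene, was at 7.73, 6.72, 6.88, 3.88 and 4.86 in Th1 recipients, against 2.60, 2.32, 2.61, 2.71 and 2.59 in naive mice, and Ms4a8a, a macrophage membrane protein, was at 6.44, 6.98, 6.76, 3.68 and 3.30 in Th1 recipients, against 2.93, 2.82, 2.94, 2.95 and 2.86 in naive mice. The collagenase Mmp8 had the same order (5.68, 5.62, 5.86, 3.41 and 3.18 in Th1 recipients, against 2.66, 2.66, 2.97, 2.84 and 2.45 in naive mice). Averaged over the list, cytotoxic granule genes were at 7.03, 6.93, 6.86, 5.20 and 5.32 in the 5 recipients and 3.05 to 3.17 in naive mice, and cell cycle genes at 5.27, 5.40, 5.43, 4.39 and 4.73 in the recipients and 3.55 to 3.64 in naive mice. MHC class II genes ran the other way and lay between 8.66 and 9.0 in the recipients, highest in recipients 4 and 5. Hba-a1 and the serum protein gene Alb (5.57, 3.49, 4.19, 2.65 and 2.74 in Th1 recipients, against 2.80, 2.61, 2.95, 2.85 and 2.77 in naive mice) were lowest in recipients 4 and 5 among the recipients, and their part in these differences was not tested.

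**Figure D4:**
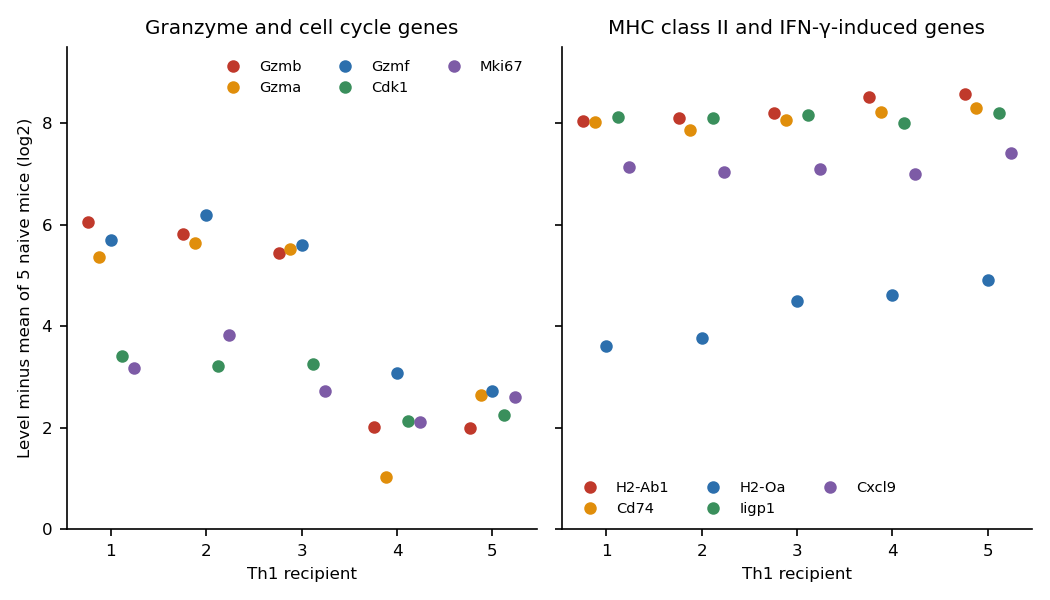
Log2 level in each Th1 recipient minus the mean of 5 naive wild-type mice (vertical axis), with Th1 recipients 1 to 5 along the horizontal axis and points for each of 10 genes in a pair of panels. Granzyme and cell cycle genes at left lie lowest in recipients 4 and 5, by about 4 log2 units for Gzmb, while MHC class II and IFN-γ-induced genes at right stay level or are highest there.

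Set against wild-type Th17 recipients, which had been irradiated in the same way, Th1 recipients differed in few genes. No plate column, as read from the titles, held both groups, so column and group cannot be told apart here either. Of 17097 genes, 186 (1.09%) were higher and 327 (1.91%) were lower in Th1 than in Th17 recipients. Among genes that rose by 2-fold or more over naive mice, 71 were also higher than in Th17 recipients, and 11 of those that fell were also lower than there. Without Th1 recipients 4 and 5, 47 of the 71 and 9 of the 11 were still called. The granzymes of the near-identical cluster led. Gzmf was at 8.35, 8.84, 8.24, 5.72 and 5.36 in Th1 recipients, against 3.11, 3.11, 4.54, 3.02 and 2.81 in Th17 recipients, a difference of 3.99 ± 0.45 (adjusted p = 2e-06), and Gzmd was at 7.63, 7.29, 7.11, 5.45 and 4.74 in Th1 recipients, against 2.60, 2.79, 2.62, 2.60 and 2.62 in Th17 recipients, where it was near background. The fit shares 1 spread per gene over all groups, and Gzmf varied little in naive mice. Its SE and adjusted p therefore understate the spread among the recipients. Gzmb and Gzma did not pass this test (0.19 ± 0.56 and −0.32 ± 0.55). With Th1 recipients 4 and 5 left out the differences were 1.70 and 1.14. Those mice held the lowest Th1 levels of both genes and were singled out after their values were seen. The larger differences without them are therefore a description and no test.

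Most IFN-γ-induced genes were not called between both kinds of recipient. Iigp1 differed between Th1 and Th17 recipients by −0.02 ± 0.092, Gbp2 by −0.09 ± 0.12 and Cxcl10 by −0.36 ± 0.12, none of them called, and Ifng by 0.19 ± 0.13 (adjusted p = 0.67). Of the 21 genes in that list, 3 (14.3%) were higher and 2 (9.52%) lower in Th1 recipients, against 1.09% and 1.91% of all genes, with Cd274 (0.39 ± 0.093) and Cxcl9 (0.31 ± 0.088) among the higher. Without Th1 recipients 4 and 5, 1 was higher and 1 lower, and neither Cd274 nor Cxcl9 was called. Of the MHC class II genes 8 of 12 were higher in Th1 recipients, and 7 without Th1 recipients 4 and 5. H2-Oa was at 6.70, 6.85, 7.57, 7.69 and 7.99 in Th1 recipients, against 5.20, 5.35, 5.21, 5.73 and 5.66 in Th17 recipients (1.93 ± 0.17), and H2-Ab1 at 11.06, 11.11, 11.21, 11.52 and 11.59 in Th1 recipients, against 10.34, 10.24, 10.01, 10.49 and 10.05 in Th17 recipients (1.07 ± 0.14). The integrin Itgax (1.48 ± 0.14), the chemokine Cxcl13 (2.02 ± 0.36), the gelatinase Mmp2 (1.83 ± 0.31), the eosinophil-associated ribonuclease Ear3 (2.35 ± 0.42) and Nkg7 (1.23 ± 0.12) were also higher. Lower in Th1 recipients were 13 of the 20 IL-17 targets. Cxcl1 was at 4.51, 3.44, 3.30, 4.03 and 4.16 in Th1 recipients, against 7.04, 7.19, 7.25, 6.98 and 6.88 in Th17 recipients (−3.18 ± 0.15), and S100a9 at 6.49, 5.02, 3.57, 3.96 and 3.80 in Th1 recipients, against 8.02, 8.54, 8.82, 7.85 and 9.38 in Th17 recipients (−3.95 ± 0.37). Among genes that fell in Th1 recipients, 6 of 16 cholesterol enzymes were lower than in Th17 recipients, and 4 without Th1 recipients 4 and 5. Idi1 was at 7.13, 7.01, 6.96, 7.01 and 7.25 in Th1 recipients, against 7.74, 7.91, 7.30, 7.97 and 8.66 in Th17 recipients (−0.85 ± 0.17), where recipient 5 of the Th17 group was the highest, and Fdps differed by −0.79 ± 0.15. Bcan was higher in Th1 recipients (1.02 ± 0.18, and 0.59 without Th1 recipients 4 and 5), although it fell against naive mice.

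**Figure D5:**
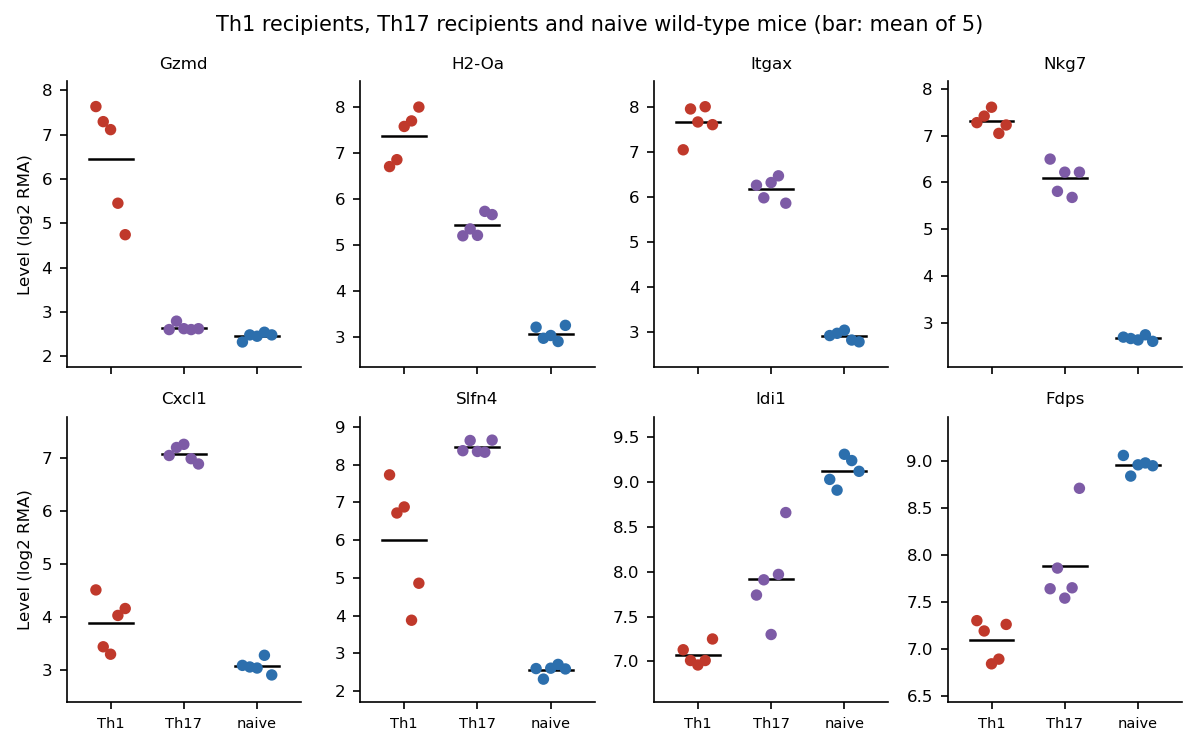
Log2 level in each mouse (points) with the group mean (bar) for 8 genes called both against naive mice and against Th17 recipients, with Th1 recipients, Th17 recipients and naive wild-type mice from left to right in each panel. Gzmd, H2-Oa, Itgax and Nkg7 are highest in Th1 recipients, Cxcl1 and Slfn4 are highest in Th17 recipients, and Idi1 and Fdps are lowest in Th1 recipients.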

How the data were processed

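Total RNA of whole spinal cord was measured with 1 array per mouse. The deposited values are log2 signals that the authors computed by RMA for 45118 probe sets on 24 arrays. They come without detection calls, and the RMA settings are not stated in the sources used here. Gene names came from the platform annotation, in which 28898 probe sets carried 1 symbol, 551 carried several and 15669 were not listed. For each of 17097 genes the brightest probe set with 1 symbol, by its mean level across the 24 arrays, was used (16937 have a current Entrez entry). All columns could be mapped to a sample by their labels (0 left out). Array medians lay between 3.46 and 3.57, replicates of a group correlated at 0.986 to 0.997, and no array was a copy of another (smallest mean absolute difference 0.143). With 5 arrays a group the median SE of a difference was 0.106, and the number of arrays limits the precision.

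Groups were compared with limma 3.58.1 in R 4.3.3 in a single fit over all 24 arrays in 5 groups, without a block, two-sided, with Benjamini-Hochberg adjustment over the 17097 genes and a call at adjusted p below 0.05. The methods of the study name a t-test, which was run as an alternative. Labels name separate mice, and the replicate numbers do not pair them. Tested on simulated data (17097 genes, 200 changed), the fit recovered 12% of genes changed by 0.25 log2 units, 68% at 0.5 and 98% at 1. False calls there were 2.8%. These rates hold for that setting only. The rate of recovery or of false calls in the measured arrays, where 6969 genes were called, was not tested. Errors are SE of the fit unless stated otherwise. They use 1 spread per gene shared by all 5 groups, so they understate the error of genes that varied more among recipients. In genes changed by 2-fold or more the median SD was 0.244 in Th1 recipients and 0.152 in naive mice. Figures and summaries were made with Python 3.11.15.

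The 66 gene lists, the members and the tests were chosen with earlier results of these data known, so no list is independent support. Named genes were the 15 largest changes each way with non-overlapping groups, up to 4 members of each list with the smallest adjusted p and members called against the sign of the list, up to 10 genes each way that also differed from Th17 recipients, the 10 widest Th1 ranges, the 10 highest naive levels, and the markers of other cells. Another 73 genes of the 262 named, all members of these lists, fall outside this rule and were chosen after their values were seen. Promoter windows of 300 bases (250 before the start) from RefSeq, GRCm38.p6, matched 13514 genes. Plate rows and columns were read from a letter and number code in the sample titles, which the labels do not explain. Of the Th1 recipients and naive mice, 3 rows held both groups, while no plate column that held a Th1 recipient held a naive wild-type mouse or a wild-type Th17 recipient, so column and group cannot be told apart in either comparison.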

Additional observations from a re-analysis of the deposited data

Results flagged for a closer look

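Within groups of 5 mice, 1 array lay far from the other 4 in 24 of 524 tests of a named gene in a group (4.58%), and chance alone marks about 1 in 20. In Th1 recipients, recipient 4 was low for Oasl2 (8.48, others 9.24 to 9.47), Gbp7 (8.67, others 9.10 to 9.19), Irf4 (2.86, others 3.19 to 3.32), Cxcr2 (2.46, others 2.80 to 2.88) and Uty (2.77, others 2.87), and high for Cst7 (10.08, others 9.73 to 9.83). Recipient 1 was high for Pf4 (4.30, others 3.15 to 3.45), Ctsw (8.22, others 7.80 to 7.87) and Fcrls (4.18, others 3.66 to 3.81). Recipient 2 was high for Cldn11 (9.90, others 9.33 to 9.43) and low for Slc2a5 (2.39, others 2.80 to 2.92). Recipient 3 was low for Xist (9.12, others 9.64 to 9.78) and Kcnj10 (8.34, others 8.45 to 8.48) and high for Gzmm (3.61, others 3.31 to 3.38).

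In naive mice, mouse 3 was high for Aldoc (12.89, others 12.54 to 12.62) and Ptgds (12.16, others 11.88 to 11.96) and low for Aplp1 (12.16, others 12.32 to 12.38) and Tlr2 (3.12, others 3.42 to 3.52). Mouse 5 was low for Mmp9 (3.61, others 4.16 to 4.30) and Ear3 (2.51, others 2.65 to 2.70), mouse 4 for Batf3 (3.13, others 3.42 to 3.48) and Mpo (2.49, others 2.66 to 2.70), mouse 2 for Mmp12 (2.60, others 2.85 to 2.92) and mouse 1 for Gbp7 (3.49, others 3.74 to 3.80).

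Signal was also present in probe sets that the annotation does not list. Of 15669 such probe sets, 3117 were called between Th1 recipients and naive mice, 410 of them higher and 130 lower by 2-fold or more, and the largest difference was 8.86.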

How the results depend on the processing

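The count of genes called between Th1 recipients and naive mice (6969, 2854 higher and 4115 lower) depended on scaling and on the threshold. It was 13284 (1977 higher, 11307 lower) with arrays centred on their median and 15677 (1256 higher, 14421 lower) with arrays centred on ribosomal protein genes. It was 10683 (6568 lower) over all probe sets tested separately, where more features were tested, and 1400 (1152 higher, 248 lower) with a 2-fold limit. Leaving out each array in turn gave 6485 to 6793 genes, 2698 to 2837 of them higher and 3719 to 3994 lower, and leaving out Th1 recipients 4 and 5 gave 6579, of which 6314 were among the 6969. Between Th1 and Th17 recipients (513 genes, 186 higher, 327 lower), arrays left out in turn gave 375 to 540 (130 to 201 higher, 245 to 350 lower), and ribosomal centring gave 86 higher. A fit of only both groups gave 282 (90 higher, 192 lower), Th1 recipients 4 and 5 left out gave 320 (193 lower), and the 2-fold limit 88 (25 higher, 63 lower). The methods' t-test gave 69 (17 higher, 52 lower) after Benjamini-Hochberg adjustment and 1843 (883 higher, 960 lower) unadjusted, and an exact Mann-Whitney test gave 0 (0 higher, 0 lower) adjusted and 1406 (650 higher, 756 lower) unadjusted. Against naive mice the same adjusted tests called 6988 and 6568 genes. Quantile normalization, array weights, a trended and robust fit, plate row or column, the mean of all probe sets of a gene and a filter on low levels kept both counts, in each direction, within 1.5 times, although no plate column held both groups of either comparison. The cause of these differences was not tested, apart from the number of features or arrays.

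Replicate numbers did not pair the mice. Deviations of same-numbered Th1 recipients and naive mice correlated at 0.0959, 0.13, 0.0888, 0.0199 and 0.0718, and 1 of 5 correlated best with its own number. With the replicate number as a block 7094 genes were called (2898 higher, 4196 lower) against naive mice and 553 against Th17 recipients.

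Named genes called in the reported fit or under the alternative changed direction as follows (under ribosomal centring another 5, and under median centring another 7, changed sign without a call in either). Under ribosomal centring the difference from naive mice was −0.079 for Ahr, −0.11 for Aldh1l1, −0.53 for Amigo2, −0.23 for Avil, −0.25 for Ctla4, −0.25 for Foxc1, −0.41 for Foxp3, −0.16 for Gfap, −0.56 for Gzmm, −0.35 for H2-Ob, −0.46 for Il2, −0.24 for Irf4, −0.14 for Itgae, −0.35 for Mdm2, −0.50 for Mpo, −0.59 for Ncr1, −0.53 for Selp, −0.31 for Slc1a2, −0.039 for Slc2a1, −0.34 for Tbx21 and −0.33 for Xist, and under median centring it was −0.23 for Ncr1. Without the probe sets with a suffix for several or cross-hybridising transcripts it was −0.23 for Aldh1l1, 0.005 for Aldoc, −0.13 for Rarres2, 0.032 for Rora and −0.15 for Slc1a2, and Chil4, Col3a1 and Ptgds lost their calls. For Aldh1l1, Rarres2, Slc1a2, Chil4 and Col3a1 the probe set that remained was near background in both groups, so it gives no reading of a change. Without Th1 recipients 4 and 5, calls were lost for H2-Ob, Itgae, Slc1a2 and Tbx21 and gained for Cldn5 and Il2. In the lists the same change left 1 p53 target, 2 iron and metal genes and 7 motor neuron genes lower and 1 homeostatic astrocyte gene higher, and the medians were 0.28 for neutrophil, 0.057 for dendritic cell and 2.28 for T cell markers. Leaving out a single mouse ended calls for Alb (Th1 recipient 1 or 3, difference then 0.47 to 0.82), Avil (Th1 1 or 3, naive 1, 0.31 to 0.35), H2-Ob (Th1 4 or 5, naive 1 or 4, 0.21 to 0.24), Itgae (Th1 1, 4 or 5, naive 3 or 5, 0.37 to 0.45), Rora (Th1 3, naive 1, 2 or 3, −0.38 to −0.35), S100a9 (Th1 1 or 2, naive 1, 2, 4 or 5, 0.50 to 1.00), Slc1a2 (Th1 5, naive 2 or 3, 0.25 to 0.26), Slc2a5 (Th1 2, naive 1, −0.29 to −0.26) and Tbx21 (Th1 2, 3 or 5, naive 3 or 5, 0.23 to 0.26), and added calls for Cldn5 (Th1 2, 4 or 5, naive 2, 0.48 to 0.51), Mmp9 (naive 5, −0.51), Prf1 (Th1 1, naive 5, −0.34 to −0.31), Vip (Th1 4, −0.54) and Xist (Th1 3, naive 3, 0.34 to 0.40). Many named genes lay near background in naive cords, where the arrays bound a fold change only from below.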
